A study of Mus musculus with 122 samples.

Results

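The Dectin and Clec4 lectin receptors are C-type lectin-like proteins of myeloid cells that bind fungal and other microbial sugars or lipids, or products of dying cells. They were chosen by gene name: Clec7a, Clec4n, Clec4e, Clec4d, Clec4a1, Clec4a2, Clec4a3, Clec12a and Clec5a. Of these, 8 were matched among the 22050 genes of the count tables, and Clec7a was not analysed here. Their messenger RNA was measured in 99 libraries of sorted mouse macrophages and monocytes, in 3 count tables. The libraries come from a study of the transcription factor C/EBPβ in alveolar macrophages, the resident phagocytes of the lung's air spaces.

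Adult alveolar macrophages from bronchoalveolar lavage carried Cebpb -/- or Cebpb +/+ of the C/EBPb tm1Pfj strain on a mixed background. The -/- cells were sorted as CD11b low and CD11b high and the +/+ cells were unsplit (4, 4 and 4 libraries). The same strain gave females of facility 1 (2 Cebpb -/-, 3 Cebpb +/- and 2 Cebpb +/+), females of facility 2 (2 -/- and 3 +/+) and males (2 -/- and 2 +/+), whose labels give no facility. A set of RNA libraries made for comparison with chromatin accessibility held 3 Cebpb -/- and 3 Cebpb +/+ libraries. Conditional knockouts on C57BL/6 were LyzM Cre/Cre Cebpb flox/flox against Cebpb flox/flox without Cre (2 and 2), and CD11c +/Cre Cebpb flox/flox against CD11c +/Cre without the floxed allele (4 and 3). LyzMCre is inserted into the Lyz2 gene and is active in macrophages and granulocytes, and CD11cCre is an Itgax transgene active in alveolar macrophages and dendritic cells. Lip/Lip mice of the C/EBPtm1.2Acle strain, on a mixed background, carry an allele named for LIP, the short C/EBPβ isoform. Their cells were sorted as CD11b low and CD11b high, against Lip +/+ (4, 4 and 3), and the chromatin-matched set had 4 Lip/Lip and 4 Lip +/+ libraries. Embryonic day 18 (E18) premature alveolar macrophages from whole lung were Cebpb -/- or +/+ (4 and 3) and Csf2rb -/- or +/+ (3 and 4). The Csf2rb strain, Csf2rbtm1Cgb/J on C57BL/6, lacks the common β chain of the CSF2 receptor. E18 Ly6Chi monocytes were Cebpb -/- or +/+ (4 and 3). In mixed chimeras, irradiated CD45.1/2 mice received 66% CD11c-Cre Cebpb fl/fl (CD45.2/2) and 33% wild-type (CD45.1/1) marrow. Alveolar macrophages of each origin were sorted from lung at 5 weeks (4 and 3) and 10 weeks (3 and 4). Knockout is written KO and wild type WT below. The labels do not tie libraries to single animals, so p-values measure the spread between these libraries. A value after ± is the standard error of a log2 difference, or the SD over libraries where marked.

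As background, Clec4n (Dectin-2), Clec4e (Mincle) and Clec4d (MCL) pair with the FcRγ chain, encoded by Fcer1g, and signal through the kinase SYK and the scaffold CARD9 to NF-κB. Clec5a (MDL-1) pairs with the adaptor DAP12, encoded by Tyrobp. Clec4a2 (DCIR1) and Clec12a (MICL) carry an inhibitory motif, the ITIM, that recruits phosphatases, and Clec4a1 and Clec4a3 belong to the same DCIR family. Alveolar macrophages meet inhaled fungi and mycobacteria first, and these receptors are among the ways by which macrophages recognise them.

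The 99 libraries held 642269 to 17834909 counts on genes, and levels are given as CPM, counts scaled to a common library size with edgeR's TMM factors. A floor of 3 counts corresponded to 0.173 to 4.96 CPM. Levels share a scaling within a count table, and they are not comparable between tables or between genes. Experiments within a table differ in time and preparation, so orders of group means across experiments are descriptions. Cebpb, the targeted gene, was lower in every Cebpb KO group, with log2 fold changes of -2.95 (LyzMCre) to -5.34 (chimera, 5 weeks). Csf2rb was lower in Csf2rb KO cells (-1.62 ± 0.20). All 14 alveolar macrophage markers (Siglecf, Marco, Car4, Fabp1, Pparg and others) had counts in every group of adult mice, except that 1 was at 0 in all 5-week chimera KO libraries. Their summed levels were 6192 to 8739.8 CPM in CD11b-low KO cells, 1819 to 4301 CPM in CD11b-high KO cells and 13402 to 15998 CPM in WT cells. Of 16 markers of monocytes and interstitial macrophages (Ly6c2, Ccr2, C1qa, Lyve1 and others), none was at 0 in all CD11b-low or all CD11b-high KO libraries and 3 were in WT. Their sum was 3889 to 8791 CPM in CD11b-low KO, 5714 to 7947 CPM in CD11b-high KO and 154 to 275 CPM in WT libraries. In bulk samples a change in the share of cells and a change in RNA per cell cannot be told apart, and the part of these markers in any result below was not tested. Among the E18 Cebpb WT libraries, replicate 1 stood apart, with 71.7 CPM of eosinophil, mast cell and basophil markers, against a lowest value of 2.62 CPM in that group. Results that rest on it are given with and without it.

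Across the adult Cebpb knockouts the receptors split by gene. Over 8 comparisons with WT or Cre control cells, Clec12a and Clec5a passed the test as higher in 6 each. Clec4e passed as lower in 5, Clec4n in 3, Clec4d in 1, and Clec4a2 and Clec4a3 in 4 each and as higher in 1 each. The test was edgeR's quasi-likelihood test over all genes that passed a count filter, with Benjamini-Hochberg adjustment and a threshold of 0.05. The share of all tested genes called gives the background for each count. CD11b-low KO cells had 1 of 7 tested receptors higher and 3 lower than WT (15.1% of all tested genes called, 8.28% as higher and 6.81% as lower). CD11b-high KO cells had 2 of 7 higher and 4 lower (24% of genes, 12.2% higher and 11.8% lower), and the same WT libraries served both comparisons. Between CD11b-high and CD11b-low KO cells, 1 of 7 was lower (3.8% of genes, 1.19% higher and 2.61% lower). Facility 1 KO females had 2 of 8 higher (23.2% of genes, 12.5% higher and 10.8% lower). Facility 2 KO females had 5 of 8 higher and 1 lower (47.6% of genes, 24.9% higher and 22.7% lower). KO males had 2 of 8 higher and 2 lower (10.9% of genes, 7.12% higher and 3.76% lower). The chromatin-matched Cebpb KO set had 3 of 8 higher and 1 lower (27.2% of genes, 14.6% higher and 12.6% lower). In heterozygous females 0 of 8 passed (0.634% of genes, 0.462% higher and 0.172% lower), with 2 at an unadjusted p under 0.05 and 1 called by DESeq2.

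With LyzMCre, 2 of 7 tested receptors were lower and none higher (4.68% of genes, 2.96% higher and 1.72% lower). With CD11cCre, 5 of 8 were lower and 1 higher (16.8% of genes, 10.3% higher and 6.48% lower). The CD11b-low Lip/Lip gate had 1 of 7 higher and 2 lower than Lip +/+ (25.8% of genes, 14% higher and 11.8% lower). The CD11b-high Lip/Lip gate had 3 of 7 higher and 2 lower (39.3% of genes, 20.8% higher and 18.5% lower), against the same Lip +/+ libraries. Between CD11b-high and CD11b-low Lip/Lip cells, 2 of 7 were higher (19.5% of genes, 10.1% higher and 9.45% lower). In the chromatin-matched Lip set 0 of 7 passed (4.94% of genes, 3.1% higher and 1.84% lower), with 4 at an unadjusted p under 0.05 and 1 called by DESeq2. E18 premature alveolar macrophages had 4 of 8 lower in Cebpb KO (21.5% of genes, 12% higher and 9.55% lower) and 3 of 8 higher in Csf2rb KO (22.5% of genes, 11% higher and 11.4% lower). In E18 Ly6Chi monocytes 0 of 8 passed (3.62% of genes, 1.99% higher and 1.64% lower), with 3 at an unadjusted p under 0.05 and 1 called by DESeq2. In the chimeras 5 of 8 were lower in KO cells at 5 weeks (22.5% of genes, 12.1% higher and 10.5% lower), and 3 were higher and 2 lower at 10 weeks (45.5% of genes, 24.5% higher and 21.1% lower). Clec4a1 did not pass the count filter in the CD11b-gated Cebpb KO, LyzMCre and Lip comparisons, hence the totals of 7.

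**Figure D1:**
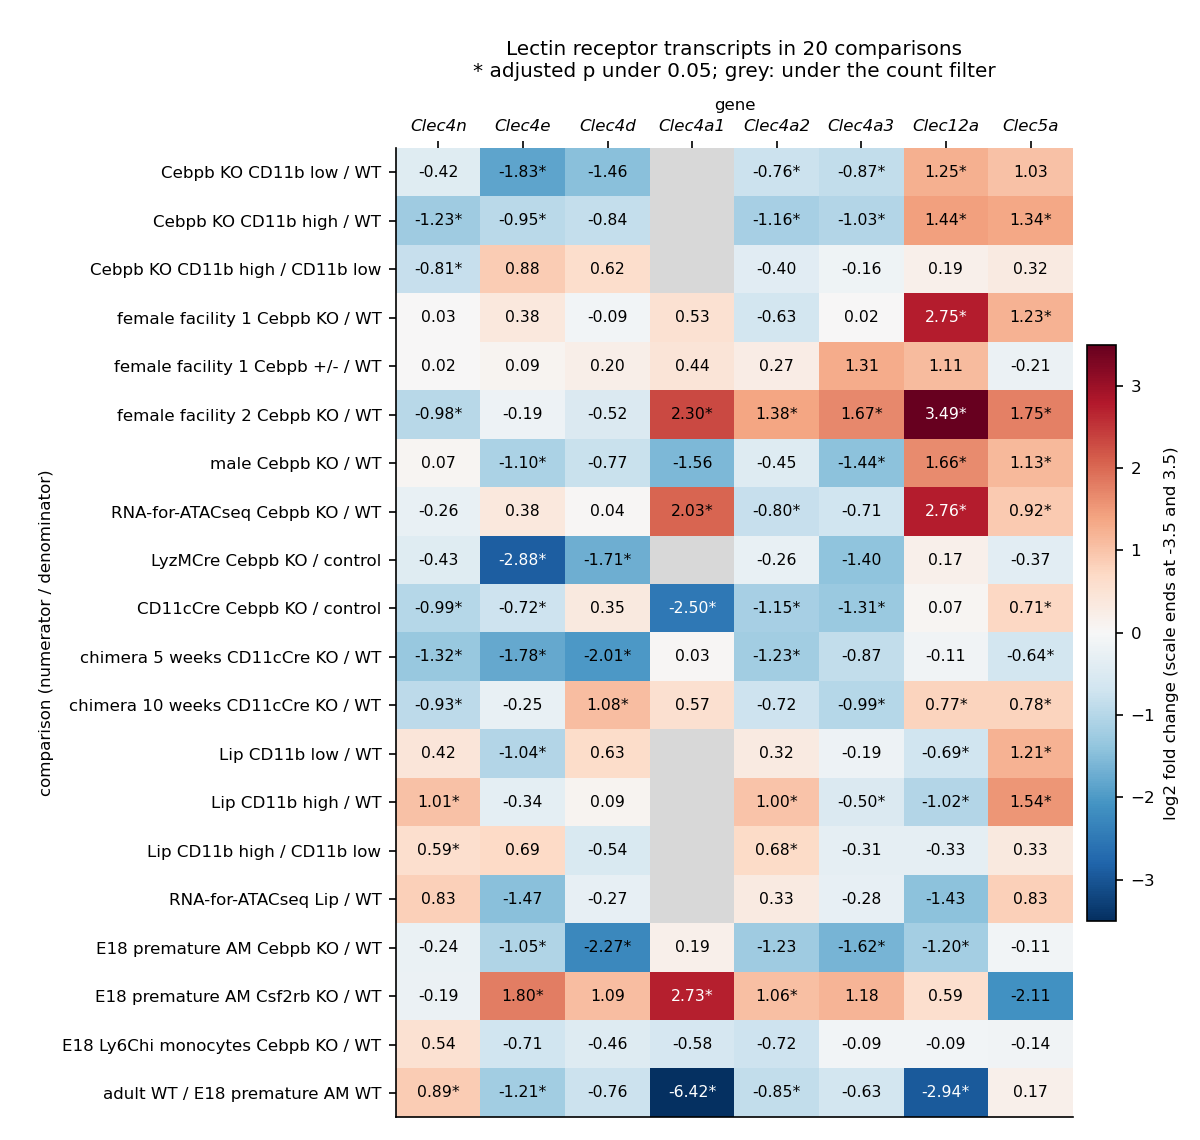
Heat map of log2 fold changes for the 8 receptors (columns) in 20 comparisons (rows). Red is higher and blue lower in the group named first, and the colour scale ends at 3.5 in either direction. An asterisk marks an edgeR adjusted p under 0.05 and grey marks genes under the count filter. The Clec12a and Clec5a columns are red in the germline adult Cebpb knockouts, with Clec12a at 3.49 in facility 2 females. Clec4e is blue in CD11b-low KO (-1.83), LyzMCre (-2.88) and 5-week chimera cells (-1.78).

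The promoters of 4 receptors are shown because their expression in the knockouts differed in direction and because they differ in C/EBPβ binding. Clec12a was higher in the germline adult knockouts. Clec4e was lower in CD11b-low and CD11b-high KO cells, KO males and the adult LyzMCre and CD11cCre knockouts. It did not pass in KO females of either facility or in the chromatin-matched set. Clec4a1 has a bound region but no C/EBP motif match, and Clec5a, higher in most germline adult knockouts, has no bound region over its promoter. Each run is the 250 bases before the annotated start site, 5′ to 3′ on the gene's strand, from RefSeq on GRCm38.p6. Capitals mark matches to C/EBP (TTGCNNAA), PU.1 (GAGGAA), AP-1 (TGANTCA) and NF-κB (GGGANTTCC) on either strand, and no match of 1 motif overlaps a match of another.
Clec12a: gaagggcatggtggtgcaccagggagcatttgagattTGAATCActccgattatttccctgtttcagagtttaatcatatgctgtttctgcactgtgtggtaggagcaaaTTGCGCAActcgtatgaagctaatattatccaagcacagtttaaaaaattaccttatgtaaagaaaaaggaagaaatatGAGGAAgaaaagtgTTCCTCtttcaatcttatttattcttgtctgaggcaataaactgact
Clec4e: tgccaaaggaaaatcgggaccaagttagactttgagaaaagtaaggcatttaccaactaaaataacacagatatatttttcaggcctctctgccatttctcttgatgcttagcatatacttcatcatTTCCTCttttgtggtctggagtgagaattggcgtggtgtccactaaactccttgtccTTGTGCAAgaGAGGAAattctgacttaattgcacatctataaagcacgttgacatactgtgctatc
Clec4a1: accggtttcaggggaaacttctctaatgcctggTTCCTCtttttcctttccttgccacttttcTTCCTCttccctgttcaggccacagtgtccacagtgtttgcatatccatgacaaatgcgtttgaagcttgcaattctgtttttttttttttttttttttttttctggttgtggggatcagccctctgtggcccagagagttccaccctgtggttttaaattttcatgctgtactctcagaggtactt
Clec5a: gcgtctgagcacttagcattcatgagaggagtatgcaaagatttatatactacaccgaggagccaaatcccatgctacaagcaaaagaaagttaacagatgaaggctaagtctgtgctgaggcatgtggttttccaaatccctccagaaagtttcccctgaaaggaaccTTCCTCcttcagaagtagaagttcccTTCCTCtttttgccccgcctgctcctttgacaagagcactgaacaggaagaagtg
The Clec12a window lies at chr6:129349994-129350243 on the plus strand, the Clec4e window at chr6:123289872-123290121 on the minus strand, the Clec4a1 window at chr6:122921598-122921847 on the plus strand and the Clec5a window at chr6:40585806-40586055 on the minus strand.

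Entries were matched for 7 receptors, of which Clec4a3 had 2, giving 8 windows. The C/EBP motif was found in 2 of the 8, against 9.56% of the 32851 promoter windows of the genome. In Clec12a it is the palindrome TTGCGCAA, beginning 140 bases before the start site. In Clec4e it is TTGTGCAA, a match on the opposite strand, beginning 66 bases before the start site, with a PU.1 match beginning 56 bases before it. PU.1, a factor that macrophages depend on, had a match in 6 of the 8 windows, against 23.3% of all windows. AP-1 had 1 match, in Clec12a, against 6.75%, and NF-κB had none in these windows, against 1.43%. These letters describe the windows and do not show binding.

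C/EBPβ chromatin immunoprecipitation of wild-type C57BL/6 alveolar macrophages gave 2 peak lists, of 27105 and 22558 peaks, and a region counted as bound where both held a peak. All 8 receptors had such a region in the gene or within 10 kb of it, against 8397 of 21887 coding genes (38.4%) and 5220 of the 8208 coding genes tested in the CD11b-gated adult comparison (63.6%). The Clec12a region, chr6:129349523-129350710, was centred at -128 bp from the start site and covers the TTGCGCAA motif. The authors' peak scores were 86.4 and 88.8 (-log10 q) and their fold enrichments 37.8 and 39.5, within the top 1.65% and 1.4% of the lists. The Clec4e region, chr6:123289359-123290477, was centred at -47 bp and scored 47.5 and 44.5 (-log10 q). The Clec4a1 region was centred at -255 bp and scored 33.5 and 37.8.

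Clec4d had 4 regions, centred at -9086, -1864, -109 and 4043 bp from its start site, with -log10 q of 37.7, 43.5, 11.03 and 37.6 in the first list. The farthest of these, chr6:123252611-123253431, lies between Clec4n and Clec4d and was counted for both. Clec4n had another, with scores of 30.0 and 26.5, 1537 bp before its gene span. At Clec4a2 the regions lay inside the gene, 585 and 4178 bp after the start site (21.0 and 39.5 in the first list), and Clec4a3 had a low-scoring region over its start site (6.47 and 7.34). Clec5a had regions at -9236, -2795, 1156 and 9373 bp from its start site (35.7, 32.9, 6.57 and 39.0 in the first list), none of them over the printed window. The peaks were called in wild-type cells only, so they carry no comparison with KO cells.

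**Figure D2:**
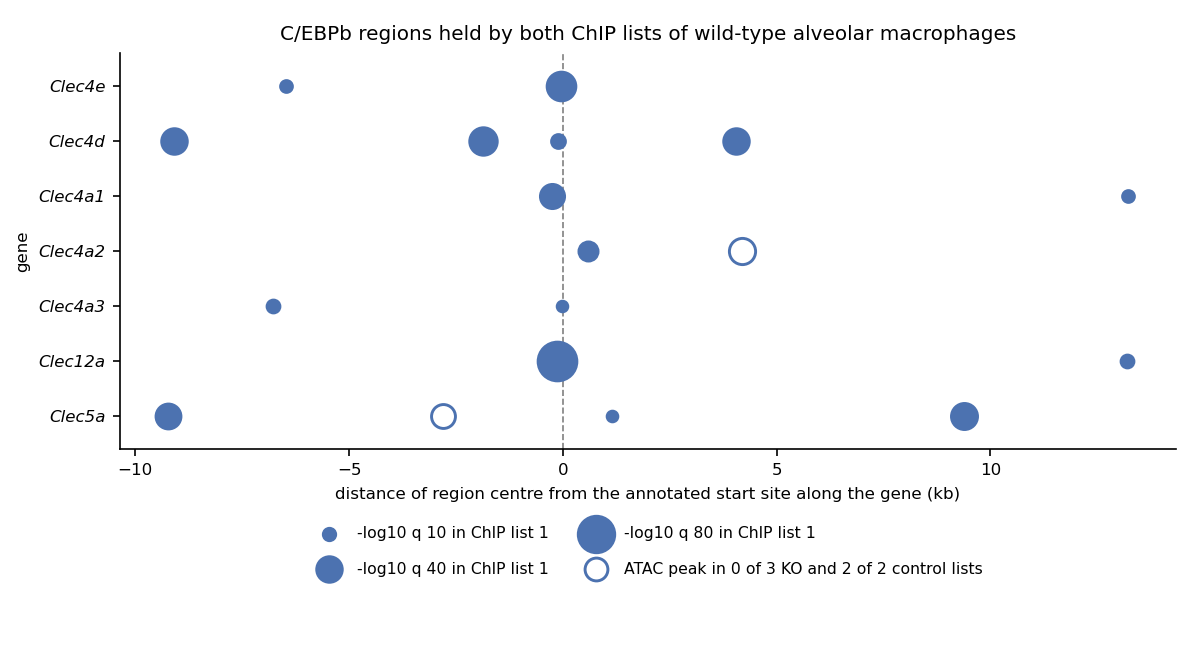
Positions of the C/EBPβ regions held by both peak lists, by distance of the region's centre from the gene's start site (x axis, kb), for the 7 receptors with an annotated start site here (rows); circle area follows the -log10 q of the first list, and an open circle marks a region with an accessibility peak in both control cultures and in none of the 3 KO cultures. The largest circle sits at the Clec12a start site (86.4), and the 2 open circles are at Clec4a2 (4178 bp) and Clec5a (-2795 bp).

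Accessibility was measured in alveolar macrophages cultured for 7 days with CSF2 (20 ng/ml) and interferon-α (1000 units/ml), from MxCre+ Cebpb flox/flox mice (3 peak lists) and MxCre+ control mice (2 lists). Of 29 regions at the receptors with a peak in both control lists, 3 (10.3%) had a peak in no KO list and 25 (86.2%) had one in all 3 KO lists. Over the 67034 such regions of the genome the shares were 7.4% and 78.1%. The 3 accessible regions without a KO peak were at Clec4a2, Clec5a and Clec4d. The Clec4a2 region was centred 4709 bp after the start site (chr6:123127194-123127604). The Clec5a region was centred at -2762 bp from the start site (chr6:40588387-40588748), and the Clec4d region lay at the start of the gene (chr6:123261928-123262240). All 3 overlapped a C/EBPβ-bound region, centred at 4178 bp for Clec4a2, -2795 bp for Clec5a and -109 bp for Clec4d. They made up 3 of the 19 accessible regions at the receptors with such an overlap (15.8%), against 7.07% of 15846 such regions genome-wide. Both the Clec12a and the Clec4e start-site regions had a peak in every KO and every control list. Peaks were called per library by the authors, and the presence of a peak is a threshold on signal, so these counts carry no test.

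Clec4n, which binds fungal mannans, was lower in several adult knockouts and higher in CD11b-high Lip/Lip cells. CD11b-high KO cells had 95.9, 213, 167 and 182 CPM, against 373, 329, 448 and 377 CPM in WT cells. Every CD11b-high KO library lay below every WT library, with a difference of -1.23 ± 0.22 log2 units (edgeR adjusted p = 0.000241). CD11b-low KO cells had 271, 299, 286 and 290.3 CPM, also below all WT libraries, but the difference did not pass, at -0.42 ± 0.21 log2 units (edgeR adjusted p = 0.203). Between the KO gates Clec4n was lower in CD11b-high cells, at -0.81 ± 0.22 log2 units (edgeR adjusted p = 0.0387). That call was lost when any of the 4 CD11b-low libraries or CD11b-high replicate 1 or 4 was left out (adjusted p of 0.0671 to 0.0958).

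With CD11cCre, Clec4n was 277, 293, 311 and 239 CPM in KO and 549, 572 and 560.4 CPM in control cells, without overlap, a difference of -0.99 ± 0.11 log2 units (edgeR adjusted p = 6.27e-05). In facility 2 females the values were 237 and 321 CPM in KO and 577, 527 and 610.4 CPM in WT cells, again apart, a difference of -0.98 ± 0.21 log2 units (edgeR adjusted p = 0.00104). Mitochondrial transcripts made up 0.886 to 1.22% of counts in facility 2 KO libraries and 0.0390 to 0.0580% in WT libraries, and their part in the facility 2 results was not tested. In facility 1 females the groups overlapped, with 432 and 346 CPM in KO and 345 and 431 CPM in WT cells, at 0.03 ± 0.23 log2 units (edgeR adjusted p = 0.949). Males also overlapped, with 421 and 367 CPM in KO and 342 and 416 CPM in WT cells, at 0.07 ± 0.23 log2 units (edgeR adjusted p = 0.909).

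The KO effect in facility 2 minus that in facility 1 was -1.01 ± 0.31 log2 units (edgeR adjusted p = 0.0537), and DESeq2 gave an adjusted p of 0.0187. Without facility 1 KO replicate 2 or facility 2 KO replicate 2, that KO group held no spread of its own, so no p-value is given. Over all alternatives that passed, those fits included, the difference ran from -1.27 to -0.98 log2 units. In that difference 0 of 8 receptors passed by edgeR, with 3 at an unadjusted p under 0.05 and 3 called by DESeq2 (7.61% of genes, 3.44% higher and 4.17% lower). LyzM-Cre KO cells overlapped their controls, with 235 and 365 CPM in KO and 466 and 350.4 CPM in control cells, at -0.43 ± 0.30 log2 units (edgeR adjusted p = 0.600). Without KO replicate 2 the difference was -0.76, in a fit that left no spread within the KO group.

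In Lip/Lip cells the CD11b-high gate was above Lip +/+ cells in every library, with 532, 496, 618 and 661 CPM in CD11b-high Lip/Lip, against 294, 314 and 257 CPM in Lip +/+ cells, a difference of 1.01 ± 0.18 log2 units (edgeR adjusted p = 0.000364). The CD11b-low Lip/Lip gate had 274, 328, 479 and 467 CPM and did not pass, at 0.42 ± 0.18 log2 units (edgeR adjusted p = 0.0979), though it did without CD11b-low replicate 1 (adjusted p = 0.00114). CD11b-high Lip/Lip cells were above CD11b-low ones by 0.59 ± 0.16 log2 units (edgeR adjusted p = 0.0171), a call lost without CD11b-high replicate 3 (adjusted p = 0.0592). Over the 21 groups of the main count table, the highest group mean was 577 ± 75.8 CPM (SD, n = 4) in CD11b-high Lip/Lip cells and the lowest 164 ± 49.5 CPM (SD, n = 4) in CD11b-high Cebpb KO cells. Of the 20 pairs of neighbours in that order, 19 overlapped. The gap lay between the CD11c-Cre control, at 560.5 ± 11.2 CPM (SD, n = 3), and the LyzM-Cre control, at 408 ± 81.4 CPM (SD, n = 2). The WT or control groups of the adult experiments themselves ranged from 288 ± 29.1 CPM (SD, n = 3) in Lip +/+ cells to 571 ± 42.2 CPM (SD, n = 3) in facility 2 females.

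Clec4e, the inducible receptor for mycobacterial trehalose dimycolate, was lower in 9 of the 20 comparisons between groups, more than any other of the 8 receptors, and higher in 1. CD11b-low KO cells had 16.2, 13.2, 22.8 and 20.7 CPM, against 36.0, 54.1, 84.4 and 87.3 CPM in WT cells, without overlap. The difference was -1.83 ± 0.31 log2 units (edgeR adjusted p = 0.000319). The CD11b-high KO gate had 29.5, 54.1, 22.5 and 31.3 CPM, which overlapped WT through KO replicate 2, at -0.95 ± 0.29 log2 units (edgeR adjusted p = 0.0205). Without WT replicate 3 or 4 or CD11b-high replicate 4 that call was lost (adjusted p of 0.0645 to 0.0779). With LyzMCre the level was 21.6 and 11.9 CPM in KO and 112 and 109 CPM in control cells, far apart, a difference of -2.88 ± 0.35 log2 units (edgeR adjusted p = 0.00202). With CD11cCre it was 16.8, 12.4, 19.3 and 20.0 CPM in KO and 25.6, 26.2 and 32.3 CPM in control cells, also apart, at -0.72 ± 0.18 log2 units (edgeR adjusted p = 0.0147), and lost without control replicate 3 (adjusted p = 0.0878).

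In males Clec4e was 23.3 and 17.9 CPM in KO and 47.4 and 41.8 CPM in WT cells, a difference of -1.098 ± 0.26 log2 units (edgeR adjusted p = 0.00919). It was lost without WT replicate 1 or KO replicate 2 (adjusted p of 0.0808 to 0.128). In females no difference passed, with 38.3 and 34.7 CPM in KO and 25.6 and 31.1 CPM in WT cells at facility 1, where KO lay above WT (0.38 ± 0.26 log2 units, edgeR adjusted p = 0.322). At facility 2 the values were 62.5 and 40.1 CPM in KO and 48.4, 68.9 and 59.8 CPM in WT cells and overlapped (-0.19 ± 0.23 log2 units, edgeR adjusted p = 0.5256). The male KO effect minus the mean female effect was -1.19 ± 0.31 log2 units (edgeR adjusted p = 0.0230), with 2 of 8 receptors called as lower in this difference (10.6% of genes, 6.16% higher and 4.43% lower). It was lost without any of the 4 male libraries in turn (adjusted p of 0.0606 to 0.121), and since the labels give no facility for the males, sex and facility cannot be told apart.

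In the CD11b-low Lip/Lip gate Clec4e was 4.00, 9.48, 8.98 and 12.5 CPM in Lip/Lip, against 18.04, 13.5 and 24.7 CPM in Lip +/+ cells, a difference of -1.04 ± 0.32 log2 units (edgeR adjusted p = 0.0133), lost without Lip +/+ replicate 3 (adjusted p = 0.179). The CD11b-high Lip/Lip gate, at 16.5, 19.7, 5.92 and 17.9 CPM, overlapped Lip +/+ (-0.34 ± 0.31 log2 units, edgeR adjusted p = 0.413). Chromatin-matched Cebpb KO and WT cells also overlapped, with 151, 105 and 517 CPM in KO and 97.4, 144 and 350.2 CPM in WT cells (0.38 ± 0.73 log2 units, edgeR adjusted p = 0.751). In E18 premature alveolar macrophages Clec4e was lower in the Cebpb knockout and higher in the Csf2rb knockout. The Cebpb values were 74.1, 74.2, 82.0 and 83.2 CPM in KO and 229, 127 and 129 CPM in WT cells, a difference of -1.05 ± 0.23 log2 units (edgeR adjusted p = 0.00440), which was -0.71 (adjusted p = 0.0276) without WT replicate 1. The Csf2rb values were 247, 504 and 278 CPM in KO and 102, 62.3, 134 and 122 CPM in WT cells, a difference of 1.80 ± 0.33 log2 units (edgeR adjusted p = 0.00439). Neither pair of groups overlapped, and the difference between the knockouts was not tested.

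E18 Ly6Chi monocytes had 231, 109, 186 and 214 CPM in Cebpb KO and 308, 343 and 275 CPM in WT cells, also apart, but the difference did not pass, at -0.71 ± 0.21 log2 units (edgeR adjusted p = 0.06998), with an adjusted p of 0.0479 by DESeq2. Adult WT cells were lower than E18 WT cells, at -1.21 ± 0.28 log2 units (edgeR adjusted p = 0.000981), or -0.87 (adjusted p = 0.0219) without E18 replicate 1. That comparison also differs in preparation, since adult cells came from lavage and E18 cells from whole lung. Over the 21 groups of the main table, Csf2rb KO cells had the highest mean, 343 ± 141 CPM (SD, n = 3), apart from the next, E18 Cebpb WT cells at 161 ± 58.5 CPM (SD, n = 3), or 128 ± 1.404 CPM (SD, n = 2) without replicate 1. The lowest was 8.73 ± 3.51 CPM (SD, n = 4) in CD11b-low Lip/Lip cells, and 16 of the 20 neighbouring pairs overlapped.

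Clec4d, which forms a complex with Clec4e at the cell surface, was lower in 3 of the 20 comparisons and higher in 1. With LyzMCre it was 8.42 and 15.4 CPM in KO and 39.9 and 47.2 CPM in control cells, apart from each other, a difference of -1.71 ± 0.35 log2 units (edgeR adjusted p = 0.0251). The call was lost without control replicate 2 (adjusted p = 0.153). In E18 Cebpb cells it was 23.1, 23.1, 13.9 and 12.9 CPM in KO and 183, 50.7 and 28.6 CPM in WT cells, also apart, a difference of -2.27 ± 0.56 log2 units (edgeR adjusted p = 0.0176). The WT libraries spanned a wide range through replicate 1, without which the difference was -1.12 (adjusted p = 0.0442). Without KO replicate 3 the call was lost (adjusted p = 0.0560). CD11b-low KO and WT cells overlapped, with 26.9, 13.2, 10.5 and 20.7 CPM in KO and 20.6, 24.5, 105 and 37.6 CPM in WT cells, at -1.46 ± 0.51 log2 units (edgeR adjusted p = 0.0659), though the difference passed without WT replicate 1 (adjusted p = 0.0385).

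In facility 2 females the KO libraries lay below WT without passing the test, with 30.6 and 53.5 CPM in KO and 60.3, 55.6 and 76.9 CPM in WT cells (-0.52 ± 0.33 log2 units, edgeR adjusted p = 0.211). Csf2rb knockout cells overlapped their WT, with 37.2, 94.0 and 94.6 CPM in KO and 27.3, 41.2, 38.5 and 43.7 CPM in WT cells (1.09 ± 0.37 log2 units, edgeR adjusted p = 0.0636), and passed without KO replicate 1 (adjusted p = 0.00886). All 20 neighbouring pairs of group means in the main table overlapped, from 87.4 ± 83.3 CPM (SD, n = 3) in E18 Cebpb WT cells to 10.6 ± 2.75 CPM (SD, n = 3) in Lip +/+ cells. Without E18 replicate 1 that E18 WT mean was 39.7 ± 15.6 CPM (SD, n = 2), and Csf2rb KO cells had the highest mean, 75.3 ± 33.0 CPM (SD, n = 3).

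**Figure D3:**
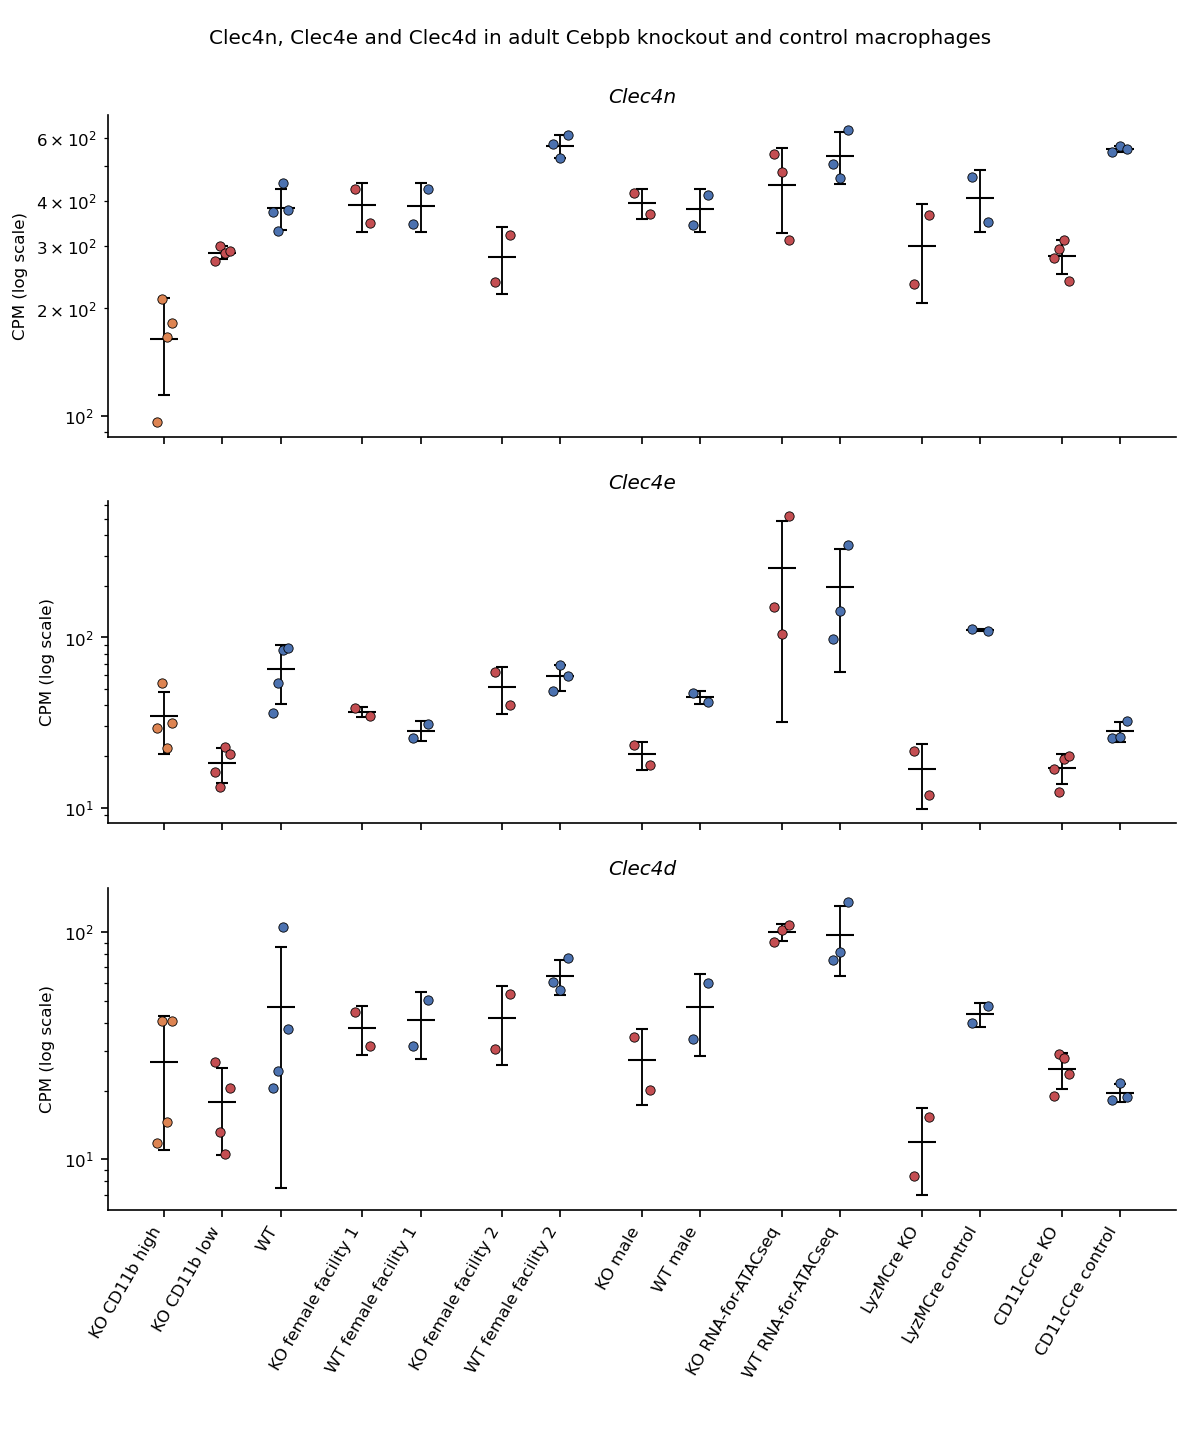
Clec4n, Clec4e and Clec4d in adult alveolar macrophages (CPM, log axis) by experiment, with KO left of WT or control; points are libraries and bars the mean ± SD. Clec4e lies at 11.9 and 21.6 CPM in LyzM-Cre KO cells and at 109 and 112 CPM in their controls, whereas the facility 2 female KO (40.1 and 62.5 CPM) and WT (48.4 to 68.9 CPM) libraries overlap.

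Clec4a2 and Clec4a3, of the DCIR family, were both lower in the KO gates and with CD11cCre. They and Clec4a1 are closely related neighbours, and the handling of multiply matching reads and of strand in the counting is not stated in the labels, so their values are uncertain where reads could be shared. Clec4a2, an inhibitory receptor that restrains cytokine production, was 29.5, 42.4, 41.0 and 41.6 CPM in CD11b-high KO, against 103, 70.9, 83.8 and 84.2 CPM in WT cells, without overlap. The difference was -1.16 ± 0.23 log2 units (edgeR adjusted p = 0.000846). CD11b-low KO cells had 35.7, 39.7, 57.2 and 70.5 CPM, all below WT, at -0.76 ± 0.23 log2 units (edgeR adjusted p = 0.0311). That call was lost without any of WT replicates 1, 3 or 4 or CD11b-low replicates 1, 2 or 3 (adjusted p of 0.0507 to 0.115). With CD11cCre the level was 105, 81.3, 108 and 43.7 CPM in KO and 198, 182 and 193 CPM in control cells, apart, at -1.15 ± 0.22 log2 units (edgeR adjusted p = 0.00285). Chromatin-matched cells had 69.7, 52.8 and 67.2 CPM in Cebpb KO and 93.4, 112 and 124 CPM in WT cells, apart, at -0.80 ± 0.17 log2 units (edgeR adjusted p = 0.00705).

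In facility 2 females Clec4a2 was 24.5 and 102 CPM in KO and 29.9, 21.4 and 28.2 CPM in WT cells, and the groups overlapped. The fitted difference, 1.38 ± 0.48 log2 units (edgeR adjusted p = 0.0303), rests on KO replicate 2, without which it was -0.0818 (adjusted p = 0.909). It was also lost without any of the 3 WT libraries (adjusted p of 0.0547 to 0.0884). CD11b-high Lip/Lip cells were above Lip +/+ cells in every library, with 183, 193, 164 and 189.6 CPM in CD11b-high Lip/Lip, against 68.1, 117 and 84.9 CPM in Lip +/+ cells, a difference of 1.00 ± 0.13 log2 units (edgeR adjusted p = 1.43e-08). They were also above CD11b-low Lip/Lip cells, at 110.4, 118, 108 and 124 CPM, by 0.68 ± 0.12 log2 units (edgeR adjusted p = 1.2e-05). In E18 Cebpb cells Clec4a2 was 90.0, 56.1, 78.0 and 51.9 CPM in KO and 306, 78.2 and 101 CPM in WT cells and did not pass, at -1.23 ± 0.43 log2 units (edgeR adjusted p = 0.0688). It passed without WT replicate 2 or 3 (adjusted p of 0.0109 to 0.0398), and was -0.38 (adjusted p = 0.387) without WT replicate 1.

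Clec4a3 was 52.5, 43.0, 46.6 and 70.5 CPM in CD11b-low KO and 35.4, 64.0, 45.0 and 47.0 CPM in CD11b-high KO cells, against 111, 67.0, 95.5 and 114 CPM in WT cells. The CD11b-high libraries lay wholly below WT, at -1.03 ± 0.23 log2 units (edgeR adjusted p = 0.00236). The CD11b-low libraries overlapped WT, at -0.87 ± 0.23 log2 units (edgeR adjusted p = 0.0142), a call lost without CD11b-low replicate 3 (adjusted p = 0.0591). With CD11cCre the level was 91.0, 71.2, 113 and 63.2 CPM in KO and 223, 199.8 and 213 CPM in control cells, far apart, at -1.31 ± 0.17 log2 units (edgeR adjusted p = 0.000165). LyzM-Cre KO cells also lay below their controls, with 27.7 and 61.5 CPM in KO and 129 and 122 CPM in control cells, but missed the threshold, at -1.399 ± 0.34 log2 units (edgeR adjusted p = 0.0549). DESeq2 gave 0.0191 there. Leaving out a KO library left no spread within the KO group, so those fits are not read as support. Over all alternatives that passed, those fits included, the difference ran from -2.13 to -1.04 log2 units. Chromatin-matched KO libraries lay below WT as well, with 98.9, 49.1 and 78.5 CPM in Cebpb KO and 114, 111 and 145 CPM in WT cells, at -0.71 ± 0.24 log2 units (edgeR adjusted p = 0.0541), with 0.0337 by DESeq2.

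In E18 Cebpb cells Clec4a3 was 57.1, 64.9, 39.4 and 44.4 CPM in KO and 264, 128 and 81.2 CPM in WT cells, without overlap, a difference of -1.62 ± 0.33 log2 units (edgeR adjusted p = 0.00309), which was -1.03 (adjusted p = 0.0162) without WT replicate 1. CD11b-high Lip/Lip cells were lower for Clec4a3, the opposite direction to Clec4a2, with 71.6, 76.7, 80.7 and 61.4 CPM in Lip/Lip, against 101, 108 and 101 CPM in Lip +/+ cells, at -0.50 ± 0.13 log2 units (edgeR adjusted p = 0.00151). KO males lay below WT males, with 26.1 and 14.1 CPM in KO and 38.5 and 71.0 CPM in WT males, at -1.44 ± 0.41 log2 units (edgeR adjusted p = 0.0340). Facility 2 KO females lay above WT, with 65.0 and 73.8 CPM in KO and 27.3, 13.8 and 27.3 CPM in WT females, at 1.67 ± 0.36 log2 units (edgeR adjusted p = 0.00138). In facility 1 females the groups overlapped, with 20.1 and 30.0 CPM in KO and 27.3 and 22.8 CPM in WT females (0.02 ± 0.43 log2 units, edgeR adjusted p = 0.984). The male KO effect minus the mean female effect was -2.28 ± 0.50 log2 units (edgeR adjusted p = 0.0112). Without WT male replicate 2 or KO male replicate 2, both calls were lost (adjusted p of 0.283 to 0.369 in males and 0.0665 to 0.0917 for the difference).

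Heterozygous facility 1 females had 60.7, 87.3 and 39.2 CPM of Clec4a3, all above WT, and did not pass, at 1.31 ± 0.39 log2 units (edgeR adjusted p = 0.1602), with 0.0352 by DESeq2. Over the 21 groups, CD11c-Cre controls had the highest means, 191 ± 8.21 CPM of Clec4a2 and 212 ± 11.8 CPM of Clec4a3 (SD, n = 3). KO males had the lowest, 25.2 ± 14.7 CPM of Clec4a2 and 20.1 ± 8.48 CPM of Clec4a3 (SD, n = 2). Of the 20 neighbouring pairs, 19 overlapped for Clec4a2 and 18 for Clec4a3.

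Clec4a1 was near 0 in the adult WT cells of the CD11b-gated experiment and high in embryonic cells. Adult WT cells had 2.57, 1.29, 1.299 and 1.01 CPM, from 2, 1, 2 and 1 counts, against 136, 156 and 123 CPM in E18 Cebpb WT cells. All 4 adult libraries lay under the floor of 3 counts. The summed counts, 6 in adult and 1542 in E18 cells, gave a log2 ratio of -6.54 after scaling (exact 95% interval -7.99 to -5.42, counting error only). Adult cells were called lower (edgeR adjusted p = 2.22e-11), and the fitted value, -6.42 ± 0.47 log2 units, depends on the prior count. Without E18 replicate 1 the fitted value was -6.43 (adjusted p = 1.63e-10). E18 Cebpb KO cells, at 213, 206, 80.8 and 132 CPM, overlapped WT (0.19 ± 0.28 log2 units, edgeR adjusted p = 0.693). Csf2rb KO cells lay above Csf2rb WT cells, with 554, 147 and 631 CPM in KO and 57.7, 33.1, 82.5 and 114 CPM in WT cells, at 2.73 ± 0.52 log2 units (edgeR adjusted p = 0.00521). E18 Ly6Chi monocytes had 541, 399, 379 and 456 CPM in Cebpb KO and 681, 820.0 and 540.1 CPM in WT libraries, which overlapped (-0.58 ± 0.19 log2 units, edgeR adjusted p = 0.111).

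Among adult cells Clec4a1 was higher in chromatin-matched Cebpb KO cells, with 15.2, 12.3 and 24.4 CPM in KO and 3.41, 3.83 and 5.38 CPM in WT cells, at 2.03 ± 0.33 log2 units (edgeR adjusted p = 0.00150). It was also higher in facility 2 KO females, with 22.9 and 6.94 CPM in KO and 2.56, 1.34 and 5.06 CPM in WT cells, at 2.30 ± 0.58 log2 units (edgeR adjusted p = 0.00333), a call lost without KO replicate 1 (adjusted p = 0.0820). It was lower with CD11cCre, with 0.244, 0.757, 2.61 and 0.9298 CPM in KO and 6.89, 5.51 and 7.43 CPM in control cells, at -2.50 ± 0.46 log2 units (edgeR adjusted p = 0.00213). The 4 KO libraries held 1, 3, 10 and 2 counts, and the log2 ratio of summed counts was -2.54 (exact 95% interval -3.404 to -1.78). In the other adult groups of the main table no library exceeded 4.84 CPM.

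Several marker levels also differed between embryonic KO and WT libraries. Monocyte and interstitial macrophage markers summed to 8835 to 11988 CPM in Csf2rb KO and 2696 to 3211 CPM in Csf2rb WT libraries. They summed to 4908 to 6572 CPM in E18 Cebpb KO and 3899 to 4602 CPM in E18 Cebpb WT libraries. Alveolar macrophage markers summed to 218 to 601 CPM in Csf2rb KO and 4658 to 6015 CPM in Csf2rb WT libraries, and to 581 to 777 CPM in E18 Cebpb KO and 4486 to 5453 CPM in WT libraries. The 10 dendritic cell markers summed to 482 to 1046 CPM in E18 Cebpb KO and 64.1 to 79.8 CPM in WT libraries, and to 164 to 346 CPM in Csf2rb KO and 55.6 to 93.8 CPM in Csf2rb WT libraries. The 10 neutrophil markers summed to 22.3 to 59.9 CPM in E18 Cebpb KO and 208 to 418 CPM in WT libraries, and to 215 to 304 CPM in Csf2rb KO and 139 to 394 CPM in Csf2rb WT libraries. Epithelial markers summed to 127 to 255 CPM in E18 Cebpb KO and 30.2 to 35.5 CPM in WT libraries. Erythroid markers summed to 5517 to 7671 CPM in Csf2rb KO and 1621 to 3132 CPM in Csf2rb WT libraries. For eosinophil, mast cell and basophil markers the sums were 19.3 to 49.5 CPM in Csf2rb KO and 2.39 to 14.4 CPM in Csf2rb WT libraries. Genes with any count numbered 9387 to 9418 in Csf2rb KO and 11639 to 12557 in Csf2rb WT libraries. The part of these markers and gene numbers in the receptor values was not tested.

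Clec12a, an ITIM-bearing receptor for uric acid crystals whose promoter holds the highest-scoring bound region of the receptors, was higher in every germline adult comparison of Cebpb KO with WT cells. Facility 2 females had 71.1 and 153 CPM in KO and 9.96, 8.95 and 12.7 CPM in WT cells, a difference of 3.49 ± 0.40 log2 units (edgeR adjusted p = 5.7e-06). Facility 1 females had 33.1 and 78.1 CPM in KO and 8.92 and 7.84 CPM in WT cells, a difference of 2.75 ± 0.50 log2 units (edgeR adjusted p = 0.000942). Chromatin-matched cells had 89.3, 41.1 and 93.4 CPM in KO and 8.40, 8.56 and 15.9 CPM in WT cells, a difference of 2.76 ± 0.36 log2 units (edgeR adjusted p = 0.000604). In these 3 sets no KO library overlapped WT. CD11b-high KO cells had 30.2, 56.6, 48.9 and 66.6 CPM and CD11b-low KO cells 22.9, 38.0, 39.4 and 81.4 CPM, against 10.3, 11.6, 18.8 and 31.5 CPM in WT cells. Both gates overlapped WT through WT replicate 4.

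The difference of Clec12a from WT was 1.44 ± 0.38 log2 units (edgeR adjusted p = 0.00885) in the CD11b-high and 1.25 ± 0.39 log2 units (edgeR adjusted p = 0.0358) in the CD11b-low gate. The CD11b-low call was lost without WT replicate 1, 2 or 3 or CD11b-low replicate 3 or 4 (adjusted p of 0.0542 to 0.139). Males had 51.0 and 23.6 CPM in KO and 10.0 and 13.6 CPM in WT cells, without overlap, at 1.66 ± 0.47 log2 units (edgeR adjusted p = 0.0335). Without either WT male library or KO male replicate 1 that call was lost (adjusted p of 0.1299 to 0.314). Heterozygous facility 1 females lay between KO and WT, at 21.6, 19.5 and 13.1 CPM, without passing the test (1.11 ± 0.48 log2 units, edgeR adjusted p = 0.377).

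In adult LyzM-Cre and CD11c-Cre mice no difference in Clec12a was detected. The LyzM-Cre experiment gave 44.5 and 54.2 CPM in KO and 41.6 and 47.9 CPM in control cells (0.17 ± 0.27 log2 units, edgeR adjusted p = 0.837). The CD11c-Cre experiment gave 35.6, 61.4, 50.7 and 36.7 CPM in KO and 41.6, 52.9 and 38.8 CPM in control cells (0.07 ± 0.19 log2 units, edgeR adjusted p = 0.860). The Cre controls, on C57BL/6, had 38.8 to 52.9 CPM, whereas the adult Cebpb +/+ libraries of the main table, on a mixed background, ranged from 7.84 to 31.5 CPM. Strain background, floxed or Cre alleles and experiment cannot be told apart in these controls. Monocyte and interstitial macrophage markers summed to 7834 to 8946 CPM in facility 2 KO and 222 to 411 CPM in WT libraries. In the LyzM-Cre experiment they summed to 3456 to 3654 CPM in KO and 897 to 932 CPM in control libraries, and in the CD11c-Cre experiment to 1799.5 to 2716 CPM in KO and 459 to 567 CPM in control libraries.

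Clec12a was lower in Lip/Lip cells, at 10.7, 17.8, 11.8 and 11.7 CPM in the CD11b-high and 12.8, 16.0, 24.0 and 12.9 CPM in the CD11b-low gate, against 29.1, 28.6 and 22.0 CPM in Lip +/+ cells. The CD11b-high gate did not overlap Lip +/+, at -1.02 ± 0.26 log2 units (edgeR adjusted p = 0.00122). The CD11b-low gate did, at -0.69 ± 0.23 log2 units (edgeR adjusted p = 0.0242), and its call was lost without Lip +/+ replicate 1 or 2 or CD11b-low replicate 1 or 4 (adjusted p of 0.0614 to 0.122). In the embryo Clec12a was lower in the Cebpb knockout, with 56.9, 89.9, 58.1 and 56.6 CPM in KO and 247, 117 and 85.4 CPM in WT cells, which overlapped, at -1.20 ± 0.32 log2 units (edgeR adjusted p = 0.0136). That call was lost without WT replicate 1, at -0.63 (adjusted p = 0.117), and without KO replicate 3 (adjusted p = 0.0564).

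The adult CD11b-low KO effect on Clec12a minus the E18 KO effect was 2.45 ± 0.55 log2 units (edgeR adjusted p = 0.00461), and without E18 WT replicate 1 it was 1.88 (adjusted p = 0.0198). In that difference 1 of 8 receptors was called as higher (10.1% of genes, 6.1% higher and 4.02% lower). Adult WT cells were lower than E18 WT cells, at -2.94 ± 0.41 log2 units (edgeR adjusted p = 4.25e-06), or -2.37 (adjusted p = 3.44e-05) without E18 replicate 1. In the main table the group means of Clec12a ran from 149.6 ± 85.5 CPM (SD, n = 3) in E18 Cebpb WT cells to 8.38 ± 0.760 CPM (SD, n = 2) in facility 1 WT females, and 18 of the 20 neighbouring pairs overlapped. Without E18 replicate 1 the E18 WT mean was 101 ± 22.2 CPM (SD, n = 2), and Csf2rb KO cells had the highest, 119 ± 34.9 CPM (SD, n = 3).

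Clec5a, a DAP12-coupled receptor of inflammatory myeloid cells, was higher in 6 of 8 comparisons of adult Cebpb KO cells with WT or control cells and in both CD11b-gated Lip/Lip groups. Facility 2 females had 96.4 and 129 CPM in KO and 49.2, 31.4 and 23.9 CPM in WT cells, without overlap, a difference of 1.75 ± 0.26 log2 units (edgeR adjusted p = 3.65e-05). CD11b-high KO cells had 39.8, 114, 86.0 and 118 CPM and CD11b-low KO cells 72.1, 48.0, 65.5 and 99.6 CPM, against 14.2, 28.4, 57.8 and 33.5 CPM in WT cells. Both gates overlapped WT through WT replicate 3. The CD11b-high difference passed, at 1.34 ± 0.36 log2 units (edgeR adjusted p = 0.00895). The CD11b-low difference did not, at 1.03 ± 0.36 log2 units (edgeR adjusted p = 0.0636), though it did without WT replicate 3 (adjusted p = 0.0138).

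Facility 1 females had 45.5 and 82.2 CPM in KO and 26.5 and 28.6 CPM in WT cells, apart, at 1.23 ± 0.31 log2 units (edgeR adjusted p = 0.00764). Without either WT library or KO replicate 2 that call was lost (adjusted p of 0.0549 to 0.181). KO and WT males were apart as well, with 19.6 and 26.0 CPM in KO and 11.4 and 9.68 CPM in WT males, at 1.13 ± 0.34 log2 units (edgeR adjusted p = 0.0372), a call lost without any of the 4 libraries in turn (adjusted p of 0.0549 to 0.279). Chromatin-matched cells had 139, 90.5 and 181 CPM in KO and 64.5, 67.8 and 84.4 CPM in WT cells, apart, at 0.92 ± 0.24 log2 units (edgeR adjusted p = 0.0174). This was lost without KO replicate 1 or WT replicate 1 or 2 (adjusted p of 0.0600 to 0.0803). With CD11cCre, KO cells had 92.7, 95.9, 90.3 and 51.6 CPM, of which replicate 4 lay within the controls' 53.6, 52.7 and 47.5 CPM, at 0.71 ± 0.18 log2 units (edgeR adjusted p = 0.0164). Leaving out KO replicate 2 or 3 or any control library ended that call (adjusted p of 0.0522 to 0.0895).

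LyzM-Cre KO cells lay below their controls in Clec5a without passing the test, with 42.1 and 51.9 CPM in KO and 57.5 and 67.4 CPM in control cells (-0.37 ± 0.27 log2 units, edgeR adjusted p = 0.605). In Lip/Lip cells Clec5a was 74.9, 61.8, 68.1 and 74.6 CPM in the CD11b-high and 46.4, 46.7, 59.3 and 68.6 CPM in the CD11b-low gate, against 24.1, 25.8 and 22.6 CPM in Lip +/+ cells. Neither gate overlapped Lip +/+, with differences of 1.54 ± 0.17 log2 units (edgeR adjusted p = 3.5e-10) and 1.21 ± 0.17 log2 units (edgeR adjusted p = 2.46e-07). In both gated Lip/Lip groups Clec5a was called higher and Clec12a lower. At E18 the Cebpb KO and WT groups overlapped in Clec5a (-0.11 ± 0.27 log2 units, edgeR adjusted p = 0.828). Csf2rb KO libraries lay below WT, with 0, 2.54 and 12.2 CPM in Csf2rb KO and 16.5, 31.5, 22.5 and 23.8 CPM in WT cells (-2.11 ± 1.02 log2 units, edgeR adjusted p = 0.176), and the difference passed without KO replicate 3, at -4.25 (adjusted p = 0.0188). In the main table the highest mean was 113 ± 23.0 CPM (SD, n = 2) in facility 2 KO females and the lowest 4.93 ± 6.46 CPM (SD, n = 3) in Csf2rb KO cells, with 18 of 20 neighbouring pairs overlapping.

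**Figure D4:**
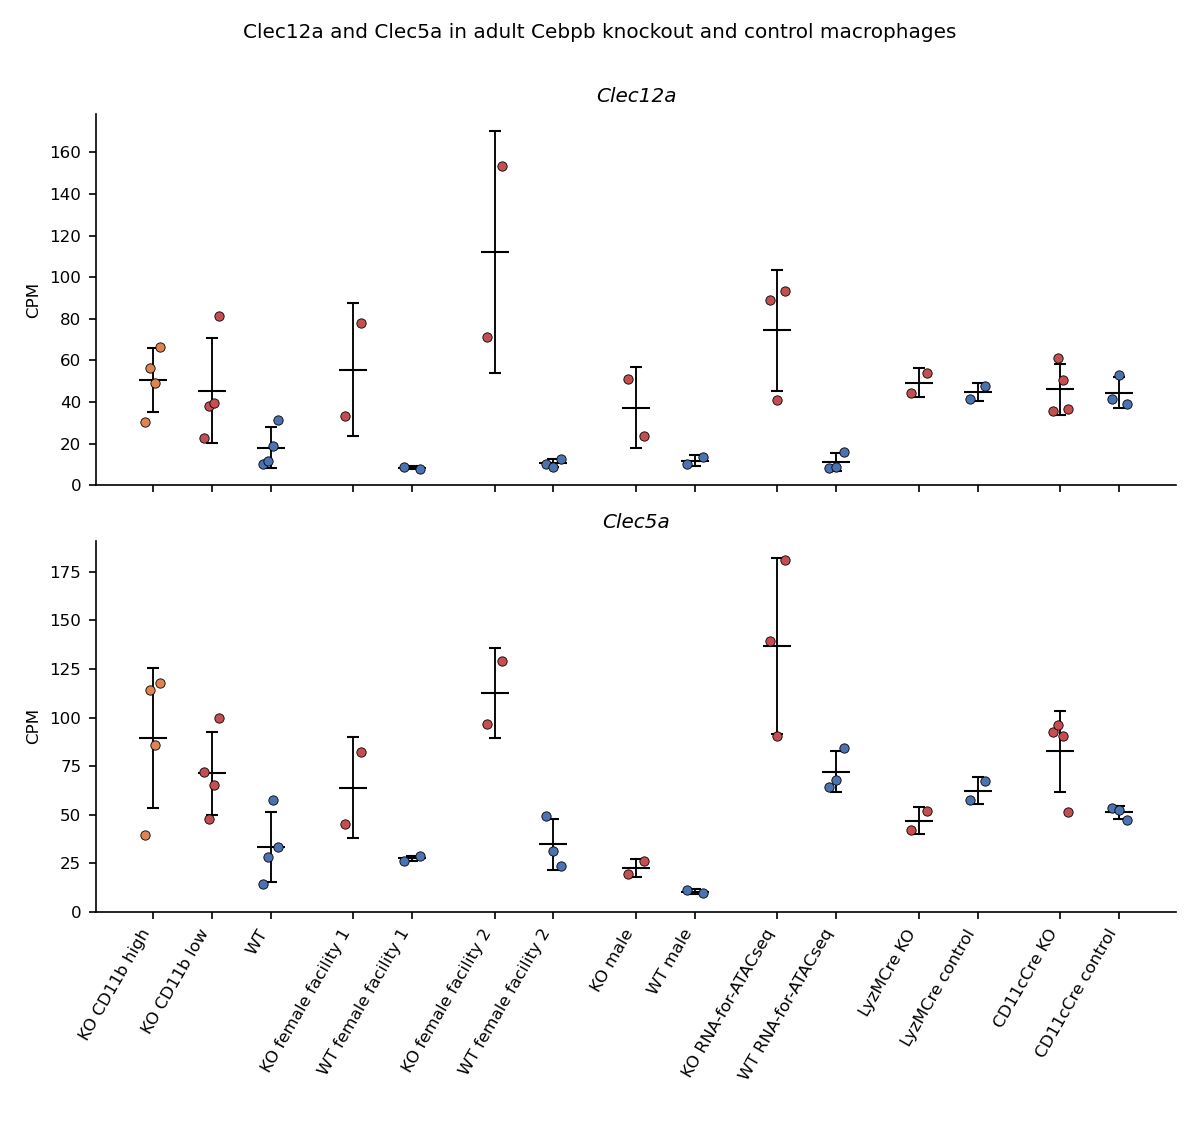
Clec12a and Clec5a in adult alveolar macrophages (CPM, linear axis) by experiment, with KO left of WT or control; points are libraries and bars the mean ± SD. Facility 2 KO females lie at 71.1 and 153 CPM of Clec12a and their WT at 8.95 to 12.7 CPM, whereas the CD11c-Cre KO (35.6 to 61.4 CPM) and control (38.8 to 52.9 CPM) libraries overlap.

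The mixed chimeras place KO and WT cells in the same recipients, and there the KO effects on Clec4d, Clec4e and Clec5a differed between 5 and 10 weeks. At 5 weeks Clec4d was 72.6, 77.7, 101 and 95.8 CPM in KO and 317, 345 and 406 CPM in WT cells, a difference of -2.01 ± 0.20 log2 units (edgeR adjusted p = 1.01e-05). At 10 weeks it was 219.8, 412 and 339 CPM in KO and 150.3, 189.6, 163 and 121 CPM in WT cells, a difference of 1.08 ± 0.20 log2 units (edgeR adjusted p = 0.000286). Neither time showed overlap, KO lying below WT at 5 weeks and above it at 10 weeks. The effect at 10 weeks minus that at 5 weeks was 3.09 ± 0.28 log2 units (edgeR adjusted p = 7.46e-06), with 3 of 8 receptors called as higher in this difference (13.5% of genes, 7.57% higher and 5.97% lower). Clec4e was 46.7, 29.5, 33.7 and 21.6 CPM in KO and 124, 125 and 98.3 CPM in WT cells at 5 weeks, apart, at -1.78 ± 0.23 log2 units (edgeR adjusted p = 9.08e-05). Its 10-week values overlapped, with 52.0, 57.6 and 55.6 CPM in KO and 47.9, 88.7, 80.1 and 52.4 CPM in WT cells (-0.25 ± 0.24 log2 units, edgeR adjusted p = 0.403), and the effects differed by 1.53 ± 0.33 log2 units (edgeR adjusted p = 0.00583).

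Clec4n was lower in KO cells at both times, with 544, 326, 437 and 331 CPM in KO, against 678, 1095 and 1345 CPM in WT cells at 5 weeks, at -1.32 ± 0.23 log2 units (edgeR adjusted p = 0.000810). At 10 weeks the values were 647, 444 and 563 CPM in KO and 841, 966, 1276 and 1202 CPM in WT cells, at -0.93 ± 0.24 log2 units (edgeR adjusted p = 0.00444), and every KO library lay below every WT library at either time. Clec5a was lower at 5 weeks, with 45.11, 36.9, 36.8 and 33.9 CPM in KO and 46.3, 66.0 and 70.2 CPM in WT cells, at -0.64 ± 0.20 log2 units (edgeR adjusted p = 0.0315). That call was lost without KO replicate 2, 3 or 4 or WT replicate 2 or 3 (adjusted p of 0.0676 to 0.141). It was higher at 10 weeks, with 49.8, 89.8 and 81.4 CPM in KO and 35.4, 54.8, 47.9 and 38.9 CPM in WT cells, which overlapped, at 0.78 ± 0.21 log2 units (edgeR adjusted p = 0.00570). The Clec5a effects differed between the times by 1.42 ± 0.29 log2 units (edgeR adjusted p = 0.00429).

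Clec12a at 10 weeks was 137, 201 and 189 CPM in KO and 112, 109.7, 99.2 and 99.2 CPM in WT cells, all KO above all WT libraries, at 0.77 ± 0.22 log2 units (edgeR adjusted p = 0.0103). At 5 weeks the Clec12a groups overlapped (-0.11 ± 0.22 log2 units, edgeR adjusted p = 0.767). The difference between times, 0.88 ± 0.32 log2 units (edgeR adjusted p = 0.0749), did not pass, but did without 5-week WT replicate 1 or 10-week KO replicate 1 (adjusted p of 0.0262 to 0.0297). Clec4a2 was lower at 5 weeks, with 57.2, 60.3, 65.2 and 42.3 CPM in KO and 92.0, 149 and 162 CPM in WT cells, at -1.23 ± 0.28 log2 units (edgeR adjusted p = 0.00574). At 10 weeks it was 55.3, 102 and 147 CPM in KO and 136, 187, 148 and 211 CPM in WT cells and missed the threshold, at -0.72 ± 0.28 log2 units (edgeR adjusted p = 0.0514). It passed with the replicate number as a block, at -0.69 (adjusted p = 0.0295), and without KO replicate 3 or WT replicate 1 (adjusted p of 0.00766 to 0.0420).

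Clec4a3 at 10 weeks was 41.5, 55.7 and 27.9 CPM in KO and 51.3, 71.2, 72.1 and 145 CPM in WT cells, overlapping and just past the threshold, at -0.99 ± 0.38 log2 units (edgeR adjusted p = 0.0496). That call was lost without KO replicate 1 or 3 or WT replicate 2, 3 or 4 (adjusted p of 0.0555 to 0.188). At 5 weeks Clec4a3 did not pass (-0.87 ± 0.37 log2 units, edgeR adjusted p = 0.108). Clec4a1 overlapped at both times, at 0.03 ± 0.32 log2 units (edgeR adjusted p = 0.960) at 5 weeks and 0.57 ± 0.38 log2 units (edgeR adjusted p = 0.238) at 10 weeks.

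Markers of other cells differed between the origins in these cells, which were sorted from lung. The 10 dendritic cell markers summed to 2495 to 4289 CPM in KO and 611 to 793 CPM in WT libraries at 5 weeks, and to 395 to 1669.6 CPM in KO and 97.0 to 216 CPM in WT libraries at 10 weeks. None of the 10 was at 0 in all libraries of a 5-week group, and 1 was in each 10-week group. The 16 monocyte and interstitial macrophage markers summed to 5802 to 10242 CPM in KO and 7259.6 to 8107 CPM in WT libraries at 5 weeks, and to 15961 to 21783 CPM in KO and 2204 to 5028 CPM in WT libraries at 10 weeks. Alveolar macrophage markers summed to 3938 to 5439 CPM in KO and 22623 to 34966 CPM in WT libraries at 10 weeks, and to 2981 to 3517 CPM in KO and 7719 to 12809.6 CPM in WT libraries at 5 weeks. Neutrophil markers summed to 21.8 to 74.4 CPM in KO and 70.6 to 175 CPM in WT libraries at 5 weeks, and to 27.0 to 32.3 CPM in KO and 53.8 to 99.0 CPM in WT libraries at 10 weeks. Epithelial markers summed to 38.0 to 1281 CPM in KO and 85.1 to 139 CPM in WT libraries at 10 weeks, and among them Scgb1a1, a marker of airway club cells, was 18.3 to 1212 CPM in KO and 8.63 to 40.7 CPM in WT libraries at 10 weeks. Mitochondrial transcripts made up 0.421 to 0.898% of counts in KO and 0.147 to 0.185% in WT libraries at 10 weeks, and 0.173 to 0.262% in KO and 0.105 to 0.197% in WT libraries at 5 weeks. The part of these differences in the receptor values was not tested.

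**Figure D5:**
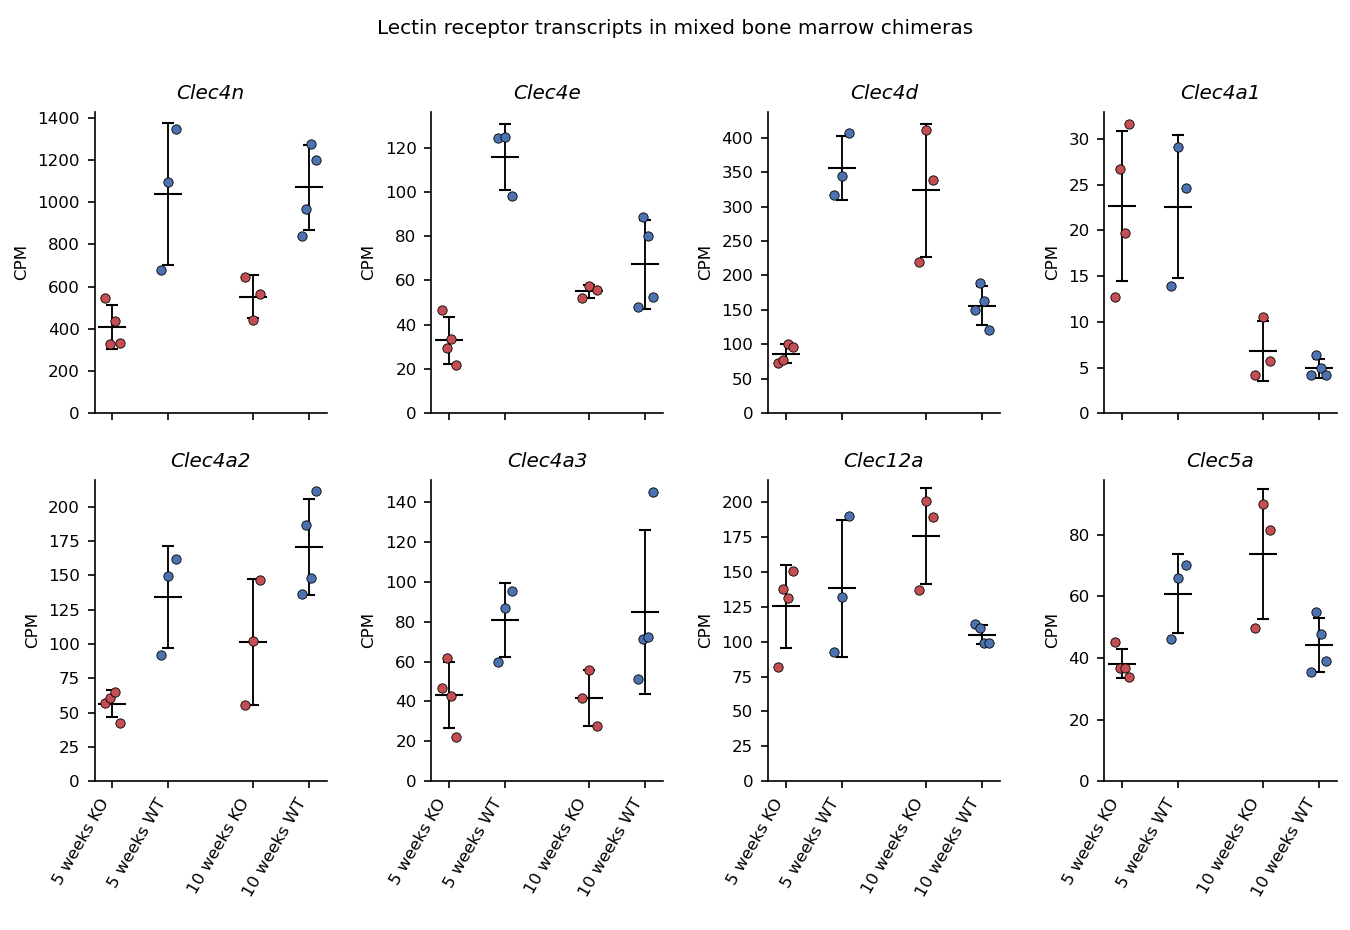
The 8 receptors in mixed bone marrow chimeras (CPM) at 5 and 10 weeks after transfer, with CD11c-Cre Cebpb KO cells left of WT cells; points are libraries and bars the mean ± SD. Clec4d lies at 72.6 to 101 CPM in KO and 317 to 406 CPM in WT cells at 5 weeks, and at 219.8 to 412 CPM in KO and 121 to 189.6 CPM in WT cells at 10 weeks.

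Adult WT cells were compared with E18 Cebpb WT cells, with 1 of 8 receptors higher and 4 lower in adult cells (37.3% of genes, 16.9% higher and 20.5% lower). Clec4n was higher, with 373, 329, 448 and 377 CPM in adult and 287, 207 and 159 CPM in E18 cells, at 0.89 ± 0.25 log2 units (edgeR adjusted p = 0.00560), a call lost without E18 replicate 3 (adjusted p = 0.0553). Without E18 replicate 1 it was 1.14 (adjusted p = 0.00217). Clec4a2 was lower, with 103, 70.9, 83.8 and 84.2 CPM in adult and 306, 78.2 and 101 CPM in E18 cells, which overlapped, at -0.85 ± 0.33 log2 units (edgeR adjusted p = 0.0452), a call that rests on E18 replicate 1. Without that library the difference was 0.0066 log2 units (adjusted p = 0.989), and the call was also lost without adult replicate 2, 3 or 4 (adjusted p of 0.0875 to 0.0986). Csf2rb knockout cells were higher in Clec4a2, with 258, 139 and 151 CPM in Csf2rb KO and 68.8, 130.2, 71.9 and 105 CPM in WT cells, apart, at 1.06 ± 0.31 log2 units (edgeR adjusted p = 0.0343). Leaving out KO replicate 1 or WT replicate 1, 3 or 4 ended that call (adjusted p of 0.0746 to 0.102).

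In E18 Ly6Chi monocytes the Cebpb KO differences of the 8 receptors lay between -0.72 log2 units (Clec4a2) and 0.54 log2 units (Clec4n), and Clec4e was the only receptor whose KO and WT libraries did not overlap. In the chromatin-matched Lip set all 7 tested receptors overlapped between Lip/Lip and Lip +/+ cells, with differences from -1.47 log2 units (Clec4e) to 0.83 log2 units (Clec4n). Clec12a there was 13.5, 6.52, 13.9 and 3.44 CPM in Lip/Lip and 44.0, 19.3, 11.6 and 28.2 CPM in Lip +/+ cells, at -1.43 ± 0.46 log2 units (edgeR adjusted p = 0.0992), with 0.0351 by DESeq2.

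Genes downstream of the activating receptors were followed as a list of adaptors and SYK-CARD9 pathway genes, and the share of all tested genes called in the same comparison stands beside each count. This and the lists below were counted in every comparison. Results are given for only some comparisons, so they do not show whether a pattern recurs in the others. CD11b-low KO cells had 3 higher and 1 lower of 23 tested, with a median difference of 0.08 log2 units, against 0.00096 over all genes, of which 15.1% were called. CD11b-high KO cells had 2 higher and 1 lower of 23 tested (median -0.04, all genes 0.01, 24% of genes called). Facility 2 KO females had 6 higher and 7 lower of 24 tested (median -0.16, all genes 0.02, 47.6% of genes called), among them the kinase gene Syk, which was lower (-0.96 ± 0.19 log2 units, edgeR adjusted p = 0.000424). E18 Cebpb KO cells had 9 higher and 1 lower of 24 tested (median 0.26, all genes -0.02, 21.5% of genes called). These included the NF-κB subunit gene Rel (2.01 ± 0.29 log2 units, edgeR adjusted p = 0.000187) and Malt1, a CARD9 partner (1.79 ± 0.21 log2 units, edgeR adjusted p = 3.51e-05). CD11b-high Lip/Lip cells had 8 higher and 2 lower of 23 tested (median 0.16, all genes 0.00049, 39.3% of genes called), and 10-week chimera KO cells 6 higher and 5 lower of 24 tested (median -0.00066, all genes 0.03, 45.5% of genes called).

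Of cytokines and mediators known to be induced through SYK and CARD9, CD11b-low KO cells had 1 higher and 5 lower of 9 tested (median -1.23, all genes 0.00096, 15.1% of genes called). In CD11b-high KO cells the count was 1 higher and 5 lower of 9 tested (median -1.28, all genes 0.01, 24% of genes called). Il1b, which encodes interleukin-1β, averaged 3.09 ± 1.56 CPM in CD11b-high KO and 30.5 ± 15.3 CPM in WT cells (SD, n = 4 each), a difference of -3.41 ± 0.57 log2 units, edgeR adjusted p = 0.000131. The chemokine gene Cxcl2 averaged 3.53 ± 2.30 CPM in CD11b-high KO and 28.9 ± 11.1 CPM in WT cells (SD, n = 4 each), a difference of -3.01 ± 0.54 log2 units, edgeR adjusted p = 0.000304. E18 Cebpb KO cells had 5 higher and 1 lower of 12 tested (median 0.75, all genes -0.02, 21.5% of genes called), with Il1b higher (1.43 ± 0.31 log2 units, edgeR adjusted p = 0.00444). Chimera KO cells had 2 higher and 4 lower of 15 tested at 5 weeks (median -0.55, all genes 0.00061, 22.5% of genes called), with Il6 lower (-2.11 ± 0.40 log2 units, edgeR adjusted p = 0.00251). At 10 weeks they had 9 higher and 1 lower of 15 tested (median 1.103, all genes 0.03, 45.5% of genes called), with Ptgs2, the inducible cyclooxygenase, higher (3.54 ± 0.28 log2 units, edgeR adjusted p = 1.81e-07).

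Of other C-type lectins outside the 8, CD11b-high KO cells had 1 higher and 6 lower of 8 tested (median -2.59, all genes 0.01, 24% of genes called). Mrc1, the mannose receptor, which is also among the alveolar macrophage markers, averaged 84.7 ± 23.0 CPM in CD11b-high KO and 766 ± 92.7 CPM in WT cells (SD, n = 4 each), a difference of -3.19 ± 0.28 log2 units, edgeR adjusted p = 7.54e-08. Olr1, a receptor for oxidised lipoprotein, averaged 21.9 ± 11.5 CPM in CD11b-high KO and 195 ± 78.7 CPM in WT cells (SD, n = 4 each), a difference of -3.22 ± 0.38 log2 units, edgeR adjusted p = 2.76e-06. CD11b-low KO cells had 1 higher and 5 lower of 8 tested (median -1.08, all genes 0.00096, 15.1% of genes called). LyzM-Cre KO cells had 1 higher and 3 lower of 11 tested (median -0.83, all genes 0.03, 4.68% of genes called), and CD11c-Cre KO cells 2 higher and 5 lower of 13 tested (median -0.65, all genes -0.0048, 16.8% of genes called). E18 Cebpb KO cells had 11 higher and 4 lower of 19 tested (median 2.98, all genes -0.02, 21.5% of genes called). Among them Cd209a, also a dendritic cell marker, averaged 506 ± 186 CPM in KO and 8.02 ± 2.58 CPM in WT cells (SD, n = 4 and 3), a difference of 5.95 ± 0.36 log2 units, edgeR adjusted p = 1.54e-07.

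Of a list of other receptors, for fungi and glycans but also with Trem1 and Fcgr2b, CD11b-high KO cells had 5 higher and 6 lower of 16 tested (median -0.49, all genes 0.01, 24% of genes called). Trem1, a DAP12-coupled receptor like Clec5a, averaged 4.30 ± 2.80 CPM in CD11b-high KO and 44.9 ± 7.61 CPM in WT cells (SD, n = 4 each), a difference of -3.46 ± 0.37 log2 units, edgeR adjusted p = 7.31e-07. Fcgr2b, an inhibitory antibody receptor, averaged 787 ± 221 CPM in CD11b-high KO and 45.8 ± 9.67 CPM in WT cells (SD, n = 4 each), a difference of 4.07 ± 0.28 log2 units, edgeR adjusted p = 2.78e-09. Phosphatases and other regulators of ITAM and ITIM signalling had 0 higher and 4 lower of 13 tested in CD11b-high KO cells (median -0.26, all genes 0.01, 24% of genes called). Ptpn6, which encodes the SHP-1 phosphatase that ITIM receptors recruit, was among the lower ones (-0.85 ± 0.22 log2 units, edgeR adjusted p = 0.00629). In 10-week chimera KO cells these regulators had 3 higher and 6 lower of 15 tested (median -0.15, all genes 0.03, 45.5% of genes called).

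Genes were ranked by Spearman correlation of log2(mean CPM + 1) among 9850 genes, and those with Gm-number or Rik symbols were passed over. The genes named here followed each receptor's group means most closely over the 21 groups of the main table. For Clec12a they were Ms4a6c (0.961), a membrane protein gene of monocytes and macrophages, and St8sia4 (0.909). For Clec4e they were Smndc1 (0.890) and Gch1 (0.887), an enzyme of tetrahydrobiopterin synthesis, and for Clec4d, Setd6 (0.909) and Lpcat2 (0.783). Clec4a2 was closest to Clec4a3 (0.888) and Trim12a (0.855), and Clec4a3 to Clec4a2 and Ptp4a1 (0.856). Clec4a1 was closest to Smad6 (0.873) and Steap4 (0.861), Clec5a to Cd200r1 (0.8701) and Pogk (0.853), and Clec4n to Klc2 (0.860) and Slc39a14 (0.823). Between receptors the values were 0.768 for Clec4e with Clec4d and -0.709 for Clec4n with Clec12a. The groups share strains and controls, and they fall into embryonic and adult cells, so these values are descriptions.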

How the data were processed

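The series holds 122 samples, of which 99 are RNA libraries made by a MARS-seq type protocol with barcoded reverse transcription primers, per the labels' protocols. The authors deposited raw read counts per gene in 3 tables. STAR 2.6.1a and featureCounts 1.6.3 are listed for the reads, per the submitters' processing notes, with the builds GRCm38 and mm10. The deposited peak lists give the authors' peak score, fold enrichment ratio and -log10 p and q for each peak, with MACS2 2.2.7.1 listed, per the submitters' processing notes, and they were called per sample.

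From the counts, edgeR 4.0.16 in R 4.3.3 was run per experiment and count table: filterByExpr with a minimum count of 10, TMM scaling, glmQLFit and glmQLFTest, with Benjamini-Hochberg adjustment over all genes tested and a threshold of 0.05. The steps were tested on simulated data. CPM were computed with TMM-scaled library sizes over all libraries of a table. Standard errors of log2 differences are the absolute difference over the square root of the quasi-likelihood F. The floor of 3 counts and the exact 95% intervals of summed-count ratios cover counting error only. DESeq2 1.42.0, RLE scaling, no count filter, a replicate block and each library left out in turn were alternatives. ChIP and accessibility regions were merged where peaks shared at least 1 bp and assigned to genes within 10 kb.

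The receptors, the gene lists and the comparisons were chosen with earlier results of these data known. Named genes are the 8 receptors in each comparison, the targeted genes, at most the 4 list genes with the largest absolute log2 fold change among those called, and the 2 genes of most similar pattern. Genes with fewer than 10 CPM in every group were left out of the similarity search, and genes with Gm-number or Rik symbols were not named.

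Whether shared replicate numbers pair samples was checked by the correlation of same-numbered samples' deviations from their group means. Every pair exceeded 0.1 between the CD11b-high and CD11b-low Lip/Lip gates (0.105 to 0.246, 4 pairs) and in the chimeras at 10 weeks (0.126 to 0.145, 3 pairs), so the numbers were taken as paired there, from the data. Elsewhere they name samples only. The values printed for the Lip/Lip gates and the 10-week chimeras come from fits without the block, except where the block is named. Chromatin accessibility measured directly after isolation, ChIP input and Clec7a were not analysed here.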

Additional observations from a re-analysis of the deposited data

Results flagged for a closer look

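Among 104 sets of 1 receptor in 1 group of 4 libraries, 5 held a library far from the others, and chance gives about 1 in 20. Smaller groups, among them E18 Cebpb WT cells and facility 2 females, were not screened. Clec4a1 was 0.777 CPM in CD11b-high Lip/Lip replicate 4, from 1 count, and 0 in the other 3 libraries. Clec4a2 was 29.5 CPM in CD11b-high Cebpb KO replicate 1 and 41.0 to 42.4 CPM in the others. Clec12a was 17.8 CPM in CD11b-high Lip/Lip replicate 2 and 10.7 to 11.8 CPM in the others, and 89.9 CPM in E18 Cebpb KO replicate 2 and 56.6 to 58.1 CPM in the others. Clec5a was 51.6 CPM in CD11c-Cre Cebpb KO replicate 4 and 90.3 to 95.9 CPM in the others.

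The KO effect differed between groups by the test of the difference itself in 6 cases. Male minus female effects were -1.19 for Clec4e and -2.28 for Clec4a3 on the log2 scale. Chimera effects at 10 weeks minus 5 weeks were 1.53 for Clec4e, 3.09 for Clec4d and 1.42 for Clec5a. The adult CD11b-low minus E18 effect on Clec12a was 2.45.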

How the results depend on the processing

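Of 184 receptor results, 183 kept their direction and their side of the threshold with RLE size factors, 173 without a count filter, 167 with DESeq2 and 169 with a replicate block, and none of these reversed. Of 1398 results with 1 library left out, 1282 did so, 82 lost and 32 gained a call, and 2 reversed: Clec4a2 in facility 2 females became -0.0818 without KO replicate 2, and Clec4a2 in adult against E18 WT cells became 0.0066 without E18 WT replicate 1. With 1 library left out at a time, the first ranged from -0.0818 to 1.96 log2 units and the second from -1.18 to 0.0066 log2 units. The cause was not tested. Where a group of 2 lost a library, the remaining library was assumed to vary like the other groups.

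The number of receptors called moved by over 1.5 times in these cases. Without a count filter, 2 were called in males (4 with it), 1 in the difference between facilities (0) and 1 in Ly6Chi monocytes (0). DESeq2 called 1 in heterozygotes (0 by edgeR), 3 in the difference between facilities (0), 1 in the chromatin-matched Lip set (0) and 1 in Ly6Chi monocytes (0). With a replicate block, 0 were called between the CD11b gates of Cebpb KO cells (1 without it), 2 in males (4), 1 in the chromatin-matched Lip set (0) and 3 in adult against E18 WT cells (5). Where the numbers were taken as paired, the replicate block called 2 receptors between the Lip/Lip gates (2 without it) and 6 in the chimeras at 10 weeks (5), Clec4a2 being the 1 gained, and it changed no other receptor call there. Exchanging the numbers of the KO libraries as a crossed pairing, chosen after seeing the data, gave 2 receptors and 2506 genes in facility 1 females and 3 receptors and 744 genes with LyzMCre (405 genes without a block).

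Leaving out each library in turn gave 1 to 3 receptors called in CD11b-low KO cells (4 with all), 5 to 6 in CD11b-high KO cells (6), 0 to 1 between these gates (1), 1 to 2 in facility 1 females (2), 0 in heterozygotes, 5 in facility 2 females (6), 1 to 2 in males (4), 0 to 1 in the difference between facilities (0), 0 to 3 in that between males and females (2), 1 to 5 with LyzMCre (2) and 4 to 6 with CD11cCre (6). It gave 2 to 3 in CD11b-low Lip/Lip cells (3), 5 in CD11b-high ones (5), 2 to 3 between those gates (2), 3 to 4 in the chromatin-matched Cebpb set (4), 0 to 1 in the chromatin-matched Lip set (0), 2 to 5 in E18 Cebpb KO (4), 2 to 4 in Csf2rb KO (3) and 0 in Ly6Chi monocytes. It gave 4 to 5 in chimeras at 5 weeks (5), 4 to 6 at 10 weeks (5), 3 to 4 in the difference between times (3), 4 to 5 in adult against E18 WT cells (5) and 1 to 2 in the difference between adult and E18 effects (1).

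All 8 receptors had a bound region at 50 kb, at 2 kb and with a peak in either list, and 7 at a -log10 q of at least 10 in both lists. Depth limits the low values: 3 counts are 0.173 to 4.96 CPM depending on the library, so a low Clec4a1 value has to be read against its own library's floor.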
